A study of Mus musculus with 2 samples.

Results

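The G1 cyclins and the CDK inhibitors set whether a cell leaves G1 and copies its DNA, and 8 of their genes were followed here through the cell classes of the early mouse eye region. The 8 genes are the D cyclins *Ccnd1*, *Ccnd2* and *Ccnd3*, the E cyclins *Ccne1* and *Ccne2*, and the CDK inhibitors *Cdkn1a*, *Cdkn1b* and *Cdkn2c*, named by symbol among 27998 gene identifiers, and all 8 were counted in both libraries. Single cells of the ocular area of C57BL/6J embryos at the 26-somite stage (E9.25) were captured on the 10x Chromium platform and their 3′ transcript ends sequenced. Each library came from both optic areas of 1 embryo, wild type (WT) or *Mab21l1*-null (KO). *Mab21l1* encodes a nuclear protein that the lens ectoderm needs to form a lens. Since each genotype is 1 embryo, differences between genotypes have no replicates behind them and were not tested.

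The limits on detected genes and mitochondrial RNA kept 1680 cells in the library labelled WT and 2404 in that labelled KO, with a median of 21037 and 18135 unique molecular identifiers (UMIs, 1 per captured transcript). *Mab21l1* RNA, at 20.3 UMIs per 1000000 (CPM) over all barcodes of the library labelled WT and 32.3 CPM in that labelled KO, was not lower in the latter when all tissues were summed. A total of 15 barcode sequences occurred in both libraries, and leaving those cells out changed none of the counts of class leaders or of KO to WT calls. Cells were put into 10 classes by summed levels of marker genes, which include none of the 8 genes: 1378 cells (82.0%) in the library labelled WT and 1978 (82.3%) in that labelled KO. The classes were lens placode-like (LP-like, 26 cells labelled WT and 14 labelled KO), other surface ectoderm-like (SE-like, 30 and 28), pigment epithelium-like (84 and 77), ventral optic vesicle-like (OV-like, 142 and 211), other OV-like (376 and 567), forebrain-like (91 and 129), mesenchyme-like (498 and 772), neural crest-like (29 and 27), endothelium-like (65 and 101) and erythroid-like (37 and 52). By class, *Mab21l1* ran in both directions: LP-like cells held 75 UMIs (146 CPM) labelled WT and 20 (62.4 CPM) labelled KO, a ratio of 0.428 [0.247, 0.708], SE-like cells 22 and 9 UMIs (0.519 [0.210, 1.17]), and other OV-like cells 410 and 996 UMIs (1.85 [1.65, 2.08]). A 3′ count of *Mab21l1* does not show whether the protein is made, so the genotypes below are those of the labels. The 10 leading genes of LP-like cells, which were gated within the surface ectoderm, began with *Pitx3* and held *Cxcl14* and *Cngb3*. The study lists these as lens placode genes from the same libraries. The leading genes also held the surface ectoderm markers *Cdh1*, *Epcam* and *Krt8* and none of the 4 lens placode markers of the gate. Of these markers *Pax6*, *Six3* and *Sox2* were counted in LP-like cells and *Foxe3* was not. Apart from a list that a class was gated within, no class had a marker of another class among its 10 leading genes. None of the 7 surface ectoderm markers stood among the 10 leading genes of SE-like cells, which were led by *Wnt6*, *Krt7* and *Fermt1*, although all 7 were counted there. The median level of erythroid markers in cells of the other classes lay between 1.49 and 2.27 per 10000 UMIs in the library labelled WT and between 3.42 and 4.67 in that labelled KO. In erythroid-like cells the 7 erythroid markers summed to 313995 CPM labelled WT and 320166 labelled KO. This share lowers the CPM of every other gene in that class.

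D cyclins bind CDK4 or CDK6 in response to growth signals and start the phosphorylation of the RB family, which frees the E2F factors. E2F factors switch on *Ccne1* and *Ccne2*, whose products bind CDK2 and carry the cell into S phase. The inhibitors act at both steps: p21 (*Cdkn1a*, a p53 target) and p27 (*Cdkn1b*) block CDK2 complexes, and p18 (*Cdkn2c*), of the INK4 family, binds CDK4 and CDK6. Progenitors of the eye region divide fast at this stage.

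The genes lie at the following places in GRCm38. *Ccnd1* spans 144929931 to 144939925 on chromosome 7, on the minus strand. *Ccnd2* spans 127125162 to 127152193 on chromosome 6, on the minus strand. *Ccnd3* spans 47505051 to 47599691 on chromosome 17, on the plus strand. Among the E cyclins, *Ccne1* spans 38097984 to 38107534 on chromosome 7, on the minus strand, and *Ccne2* spans 11191351 to 11204779 on chromosome 4, on the plus strand. Among the inhibitors, *Cdkn1a* spans 29090976 to 29100727 on chromosome 17, on the plus strand, and *Cdkn1b* spans 134920401 to 134925513 on chromosome 6, on the plus strand. *Cdkn2c* spans 109660876 to 109667189 on chromosome 4, on the minus strand. Exons of *Ccne1*, *Cdkn1b* and *Cdkn2c* overlapped no exon of another gene, whereas those of the other 5 genes overlapped exons on the opposite strand (*LTO1* for *Ccnd1*, *9330179D12Rik* and *Gm43126* for *Ccnd2*, *Bysl* for *Ccnd3*, *Ints8* for *Ccne2* and *AC167363.2* for *Cdkn1a*).

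Promoters are shown for 3 of the 8 genes. *Cdkn1a* differed most between the libraries, *Ccne1* was the leading E cyclin in every class, and *Cdkn1b* led the 3 inhibitors followed here in most. Each promoter is the 250 bases before a RefSeq start site, from the RefSeq table of GRCm38.p6, 5′ to 3′ on the strand of the gene. In *Cdkn1a* (chr17:29090729-29090978, plus strand) the capitals mark a form of the p53 site, ACATGT repeated after 4 bases of any kind, 49 to 34 bases before the start. In *Ccne1* (chr7:38107491-38107740, minus strand) and *Cdkn1b* (chr6:134920151-134920400, plus strand) they mark GC boxes, GGGCGG on either strand.
*Cdkn1a*: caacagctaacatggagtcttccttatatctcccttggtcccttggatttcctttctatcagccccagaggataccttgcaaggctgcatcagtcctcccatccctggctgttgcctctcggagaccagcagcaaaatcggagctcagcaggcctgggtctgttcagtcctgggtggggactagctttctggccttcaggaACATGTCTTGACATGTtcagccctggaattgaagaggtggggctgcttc
*Ccne1*: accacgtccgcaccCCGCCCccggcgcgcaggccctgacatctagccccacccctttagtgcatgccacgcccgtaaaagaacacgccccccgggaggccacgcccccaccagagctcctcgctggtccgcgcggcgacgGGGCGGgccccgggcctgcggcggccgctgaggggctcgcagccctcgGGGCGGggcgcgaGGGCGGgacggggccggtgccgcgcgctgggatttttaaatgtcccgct
*Cdkn1b*: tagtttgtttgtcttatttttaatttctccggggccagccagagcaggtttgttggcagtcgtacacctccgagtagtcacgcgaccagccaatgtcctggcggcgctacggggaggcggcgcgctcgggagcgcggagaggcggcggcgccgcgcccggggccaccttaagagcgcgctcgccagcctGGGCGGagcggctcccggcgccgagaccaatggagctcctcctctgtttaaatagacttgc
This p53 form, which reads the same on both strands and was chosen after the *Cdkn1a* sequence was seen, stood in 4 of 32851 promoter windows of this length (0.0122%). A second RefSeq start of *Cdkn1a*, with the window chr17:29093519-29093768, held no such p53 form and 2 GC boxes. GC boxes stood in 32.7% of the windows, with 4 in that of *Ccne1* and 1 in that of *Cdkn1b*. An E2F site in the forms TTTCCCGC, TTTCGCGC, TTTGCCGC or TTTGGCGC, on either strand, stood in 1.86% of all windows and in none of the 8 windows of the 5 members in the table. These are matches of letters and no measure of binding.

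*Ccnd2* was the D cyclin with the most UMIs in most pairs of class and library, *Ccnd3* was the D cyclin of erythroid-like cells, and endothelium-like cells used *Ccnd3* with *Ccnd1*. Since a 3′ library counts 1 tag per transcript, UMI sums of different genes were compared without a division by length, although capture can differ between genes. Brackets give exact 95% intervals, binomial for shares and Poisson for levels and ratios, and cover counting error only. Of 20 pairs of class and library, *Ccnd2* led 14, *Ccnd3* 5, which were erythroid-like and endothelium-like cells of both libraries and neural crest-like cells labelled KO, and *Ccnd1* 1, other OV-like cells labelled KO. In the library labelled WT the leader was ahead of the second gene by more than counting error in 9 of 10 classes, with neural crest-like cells the exception. In that labelled KO this held in 8 of 10, with LP-like and neural crest-like cells the exceptions.

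**Figure D1:**
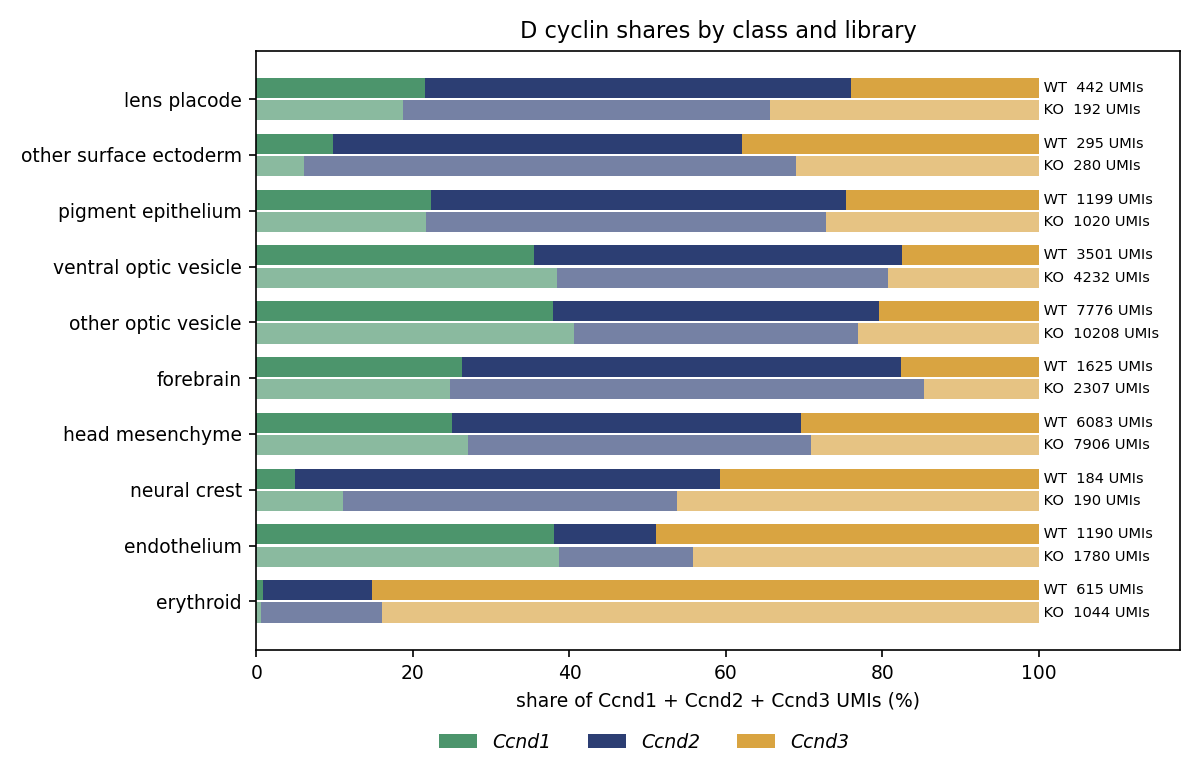
Share of *Ccnd1*, *Ccnd2* and *Ccnd3* among their summed UMIs (x axis, %) in each class (y axis), with the library labelled WT in full colour above that labelled KO in paler colour, and the UMIs behind each bar at the right. *Ccnd3* took 85.2% and 83.9% in erythroid-like cells, and *Ccnd1* took its highest shares in OV-like and endothelium-like cells.

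*Ccnd1*, the D cyclin of many epithelial progenitors, was highest in ventral OV-like cells (269 CPM [254, 284] labelled WT and 274 [261, 287] labelled KO) and other OV-like cells (263 [254, 273] and 282 [274, 291]). Endothelium-like cells held 238 and 273 CPM, forebrain-like cells 212 and 211, mesenchyme-like cells 160 and 173, and pigment epithelium-like cells 110 and 107. LP-like cells held 185 [149, 226] and 112 [78.7, 156]. In both libraries the interval of the pigment epithelium-like class lay below that of the mesenchyme-like class, while the ventral and the other OV-like classes overlapped.

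*Ccnd1* was low in 3 classes. SE-like cells held 49.5 CPM labelled WT and 36.8 labelled KO. Neural crest-like cells held 18.5 and 49.3, and erythroid-like cells 3.79 [1.23, 8.83] and 3.15 [1.16, 6.86], from 5 and 6 UMIs. Against all other gated cells of its library, *Ccnd1* was lower by 2-fold or more in both libraries, with both intervals excluding 1, in these 3 classes, with ratios of 0.241 and 0.167 in the first, 0.0903 and 0.224 in the second and 0.0180 and 0.0138 in the erythroid-like class. Of 7449 genes with at least 10 CPM in both libraries, 2.93% were lower by this rule in SE-like cells, 4.05% in neural crest-like cells and 54% in erythroid-like cells, so that a lower ratio in erythroid-like cells was the common case. Whether the few *Ccnd1* UMIs of erythroid-like cells came from free RNA was not tested.

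*Ccnd2* was highest in LP-like cells labelled WT (469 CPM [411, 532], against 281 [226, 345] labelled KO) and in forebrain-like cells (455 [426, 485] labelled WT and 515 [489, 543] labelled KO). Ventral OV-like cells held 357 and 302 CPM, other OV-like cells 289 and 252, and mesenchyme-like cells 285 and 280. SE-like cells held 263 and 381 and neural crest-like cells 205 and 190, on either side of pigment epithelium-like cells with 261 and 251. It was low in endothelium-like cells (81.5 [69.2, 95.4] and 121 [107, 135]) and erythroid-like cells (65.1 [52.1, 80.4] and 85.1 [72.5, 99.2]). In the library labelled WT, LP-like and forebrain-like cells overlapped at the top, and the classes from other OV-like to neural crest-like cells each overlapped the next. The ratio to the other gated cells was 0.274 and 0.434 in endothelium-like cells, where 9.44% of genes were lower by the rule, and 0.221 and 0.307 in erythroid-like cells.

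*Ccnd3*, the D cyclin that red cell precursors depend on for their divisions, was highest in erythroid-like cells, at 397 CPM [364, 432] labelled WT and 460 [430, 491] labelled KO. Endothelium-like cells came next with 306 [282, 332] and 313 [291, 335], and both classes stood apart from the class below in both libraries. The remaining 8 classes lay between 122 and 207 CPM. Erythroid-like cells alone were 2-fold or more above the other gated cells in both libraries (2.39 and 2.68), a level of excess that 1.96% of genes reached.

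The choice among the 3 genes varied more than their sum. The summed D cyclin level ran from 378 CPM [325, 437] in neural crest-like cells to 860 [781, 944] in LP-like cells labelled WT, and from 446 [385, 514] to 851 [817, 887] in neural crest-like and forebrain-like cells labelled KO. The *Ccnd2* share, by contrast, ran from 13.0% [11.2, 15.1] in endothelium-like cells to 56.2% [53.7, 58.6] in forebrain-like cells labelled WT, and from 15.5% [13.4, 17.9] in erythroid-like to 62.9% [56.9, 68.5] in SE-like cells labelled KO. In forebrain-like cells it was 60.5% [58.5, 62.5] in the latter library.

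In other OV-like cells *Ccnd1* and *Ccnd2* were close, and their order differed between the libraries. *Ccnd1* took 37.9% [36.8, 39.0] of D cyclin UMIs and *Ccnd2* 41.6% [40.5, 42.7] in the library labelled WT, against 40.6% [39.7, 41.6] and 36.3% [35.3, 37.2] in that labelled KO. Under stricter gates, or with classes taken from clusters, *Ccnd1* led this class in both libraries, so which gene leads rests on the gate. Endothelium-like cells divided their D cyclin UMIs as 38.1% *Ccnd1*, 13.0% *Ccnd2* and 48.9% *Ccnd3* labelled WT and as 38.7%, 17.1% and 44.3% labelled KO.

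Single cells held *Ccnd1* and *Ccnd2* together about as often as their separate shares give. After each cell was thinned to 6000 UMIs, both were counted in 46.1% [43.4, 48.8] of gated cells labelled WT, where the product of the 2 shares is 44.8%, and in 47.8% [45.6, 50.0] labelled KO, where it is 46.3%. Only *Ccnd1* of this pair was counted in 15.4% and 17.2% of cells, and only *Ccnd2* in 26.8% and 23.5%. Across the 20 points of class and library, which share 2 libraries and their depths, *Ccnd2* and *Ccnd3* ran against each other (Pearson r of log2(CPM + 1) = -0.82), and *Ccnd1* and *Ccnd2* had r = 0.56.

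*Ccne1* was the E cyclin with more UMIs in all 20 pairs of class and library, with 59.9% to 85.4% of E cyclin UMIs, and it was ahead by more than counting error in all but LP-like cells labelled KO, which held 10 and 4 UMIs. *Ccne1* was highest in mesenchyme-like cells (103 CPM [96.3, 109] labelled WT and 106 [100.5, 112] labelled KO) and forebrain-like cells (92.2 [79.4, 106] and 106 [94.0, 119]). Other OV-like cells held 76.6 and 69.4 CPM, ventral OV-like cells 69.3 and 66.3, erythroid-like cells 57.5 and 61.4, neural crest-like cells 61.6 and 86.8, SE-like cells 56.3 and 49.8, pigment epithelium-like cells 52.2 and 45.4, and endothelium-like cells 43.1 and 33.7. LP-like cells held 73.9 [52.3, 101] and 31.2 [15.0, 57.4]. No neighbours in this order stood apart in either library, although its ends did. The erythroid markers lower the *Ccne1* CPM of erythroid-like cells as well. Their place below mesenchyme-like and forebrain-like cells can therefore rest on that share.

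*Ccne2*, the second E cyclin, was highest in forebrain-like cells (35.9 CPM [28.1, 45.2] labelled WT and 30.3 [24.1, 37.6] labelled KO) and lowest in erythroid-like cells (13.6 [8.08, 21.5] and 10.5 [6.41, 16.2]). The erythroid-like intervals overlapped those of pigment epithelium-like cells (15.6 and 10.6), and the erythroid markers lower all other CPM in erythroid-like cells. Their last place in *Ccne2* can therefore rest on that share. Mesenchyme-like cells came second with 27.5 and 23.5 CPM. Endothelium-like cells, low in *Ccne1*, came next with 24.2 and 22.6 CPM. Its share of E cyclin UMIs was therefore highest there, at 35.9% [27.7, 44.9] and 40.1% [32.0, 48.7], against 22.7% and 21.2% over all gated cells. The summed E cyclin level ran from 43.7 CPM in LP-like cells labelled KO to 136 in forebrain-like cells of the same library, and D cyclin sums exceeded E cyclin sums in every class.

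**Figure D2:**
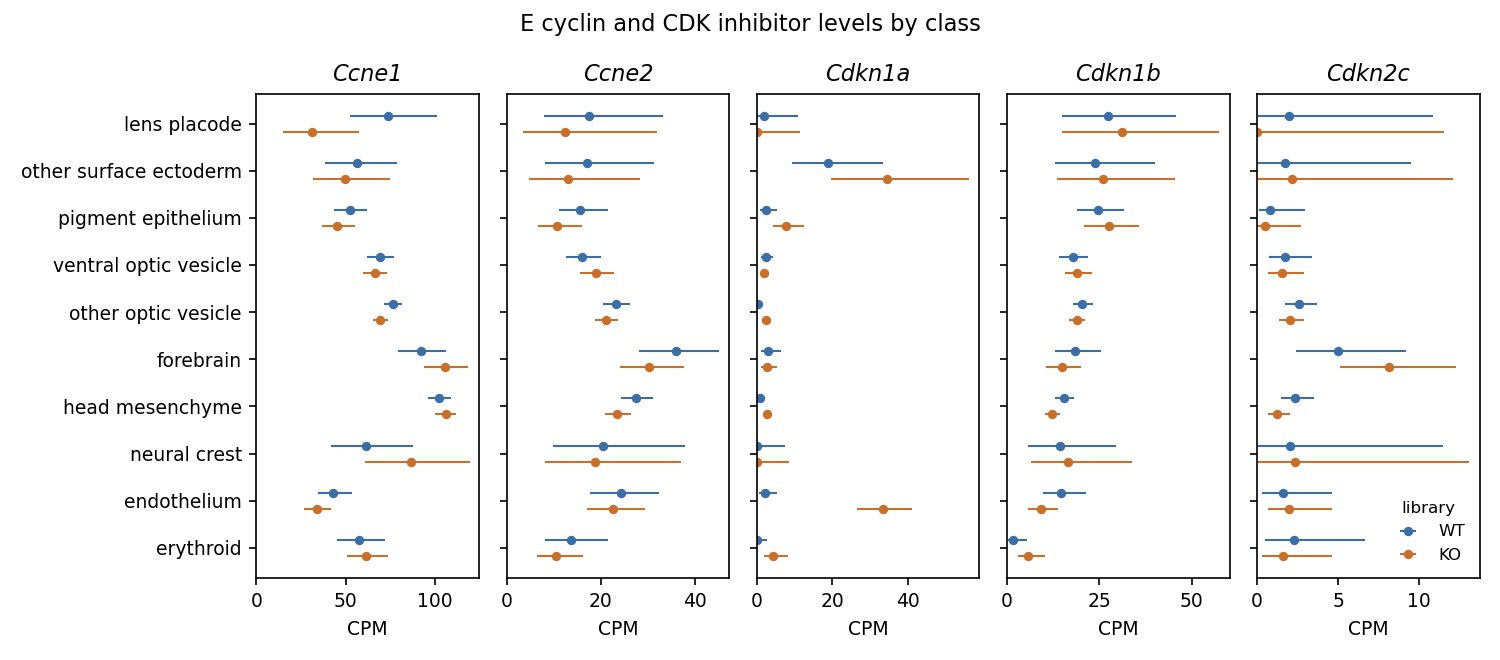
Levels (x axes, CPM, with exact 95% Poisson intervals) of the E cyclins and the CDK inhibitors in each class (y axis), blue for the library labelled WT and orange for that labelled KO. *Ccne1* is highest in forebrain-like and mesenchyme-like cells, *Cdkn1a* in SE-like cells and in endothelium-like cells labelled KO, and *Cdkn1b* is lowest in erythroid-like cells. Erythroid markers lower all CPM shown for erythroid-like cells.

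The 3 inhibitors summed to 3.79 to 62.7 CPM per class and library, below the D cyclin sum in every pair and below the E cyclin sum in all but SE-like cells labelled KO, where both sums were 62.7 CPM (29 UMIs each). *Cdkn1b* was the most abundant of them in 17 of 20 pairs of class and library, by more than counting error in 13. The exceptions were SE-like and endothelium-like cells labelled KO, led by *Cdkn1a*, and erythroid-like cells labelled WT, with 5 inhibitor UMIs in all, of which 3 were *Cdkn2c*.

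*Cdkn1b* was highest in LP-like cells (27.2 CPM [14.9, 45.7] labelled WT and 31.2 [15.0, 57.4] labelled KO), pigment epithelium-like cells (24.7 [18.8, 31.8] and 27.5 [20.8, 35.6]) and SE-like cells (23.9 and 26.0). Other OV-like cells held 20.4 and 18.8 CPM, ventral OV-like cells 17.8 and 19.1, forebrain-like cells 18.4 and 14.8, mesenchyme-like cells 15.4 and 12.3, neural crest-like cells 14.4 and 16.4 and endothelium-like cells 14.7 and 9.13. These neighbours all overlapped. Erythroid-like cells held 1.51 [0.183, 5.47] and 5.78 [2.88, 10.3], from 2 and 11 UMIs, a ratio of 0.0816 and 0.347 to the other gated cells, where 54% of genes were lower by the rule.

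*Cdkn1a* was highest in SE-like cells in both libraries, at 18.8 CPM [9.36, 33.6] from 11 UMIs labelled WT and 34.6 [19.8, 56.2] from 16 UMIs labelled KO, or 15.9 and 7.63 times the other gated cells. In the library labelled KO the interval of SE-like cells overlapped that of endothelium-like cells (33.3 [26.6, 41.3]). A rise of 2-fold or more in both libraries was met by 2.43% of genes in this class. *Cdkn1a* and *Cdkn2c* were below the 10 CPM set for that background and are given as values beside it. In the library labelled WT the next classes, forebrain-like, pigment epithelium-like, ventral OV-like and endothelium-like cells, held 2.10 to 2.99 CPM, mesenchyme-like cells 0.840 and other OV-like cells 0.357 [0.0974, 0.915]. LP-like cells, the neighbours of SE-like cells in the same epithelium, held 1 UMI labelled WT and 0 labelled KO. The exact interval of that count of 0 reaches 11.5 CPM. Neural crest-like cells held 0 in both libraries. The cells with *Cdkn1a* were 7 of 30 SE-like cells labelled WT and 7 of 28 labelled KO, against 3 of 376 and 17 of 567 other OV-like cells. The median depths were 18057 and 15605.5 UMIs for the former and 25380 and 21342 for the latter.

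*Cdkn2c* was scarce, with 80 UMIs over all gated cells labelled WT and 87 labelled KO. It was highest in forebrain-like cells, at 4.98 CPM [2.39, 9.16] from 10 UMIs and 8.12 [5.09, 12.3] from 22 UMIs, 2.32 and 5.09 times the other gated cells. A rise of this size in both libraries was met by 0.685% of genes. All other classes lay at 2.59 CPM or below in both libraries, and neighbours in the order overlapped throughout. In other OV-like cells *Cdkn1a* was lower by the rule (0.178 and 0.389), as 3.34% of genes were.

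No member passed this rule in LP-like, pigment epithelium-like, ventral OV-like or mesenchyme-like cells, although 2 reached 2-fold in both libraries with an interval that holds 1: *Cdkn1a* in mesenchyme-like cells (0.490 [0.199, 1.05] labelled WT and 0.482 [0.323, 0.698] labelled KO) and *Cdkn2c* in pigment epithelium-like cells (0.339 [0.0403, 1.27] and 0.232 [0.00581, 1.33]). The shares of the 7449 genes that were higher and lower were 1.41% and 2.04% in LP-like, 1.4% and 3.44% in pigment epithelium-like, 0.336% and 3.66% in ventral OV-like, and 3.53% and 4.48% in mesenchyme-like cells. The directions with no member in the remaining classes held 0.913% higher in other OV-like, 3.91% lower in forebrain-like, 1.6% higher in neural crest-like and 6.12% higher in endothelium-like cells.

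Other CDK inhibitors of the pathway lists put these levels in proportion. *Cdkn1c* (p57), of the same family as *Cdkn1a* and *Cdkn1b*, was above each of the 3 inhibitors in every class and library, with 191 CPM labelled WT and 204 labelled KO over all gated cells. It was highest in neural crest-like cells (941 and 1267 CPM) and lowest in erythroid-like cells (3.79 and 7.35). *Cdkn2d* (p19) stood at 34.0 CPM in both libraries, and *Cdkn2a* and *Cdkn2b* together had 1 UMI labelled WT and 2 labelled KO. *Cdk4*, the partner of the D cyclins, held 819 to 1409 CPM in the other classes but 278 and 282 in erythroid-like cells, where *Cdk6* had 0 and 1 UMI. The share of erythroid markers lowers these erythroid-like values too.

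The cells were also scored for cell cycle phase with S-phase and G2M-phase gene lists that hold none of the 8 genes, after thinning to 6000 UMIs. Genes of the pathway lists, such as E2F targets, were not removed from them, so phases and those genes need not be independent. *Ccne1* stood at 127 CPM [119, 135] in cells scored S labelled WT and 129 [122, 137] labelled KO, against 64.3 [61.2, 67.6] and 64.2 [61.5, 67.0] in cells scored G2M. *Ccne2* stood at 43.8 [39.4, 48.6] and 40.8 [36.8, 45.1] in S and at 16.2 and 15.5 in G2M. Both E cyclins were thus higher in S in each library. The D cyclins differed less: *Ccnd1* held 227 and 232 CPM in S and 196 and 215 in G2M, *Ccnd2* 319 and 285 in S and 276 and 264 in G2M, and *Ccnd3* 173 and 188 in S and 174 and 182 in G2M. *Cdkn1b* was 14.0 and 15.1 CPM in S and 19.3 and 16.5 in G2M, and its intervals overlapped in the library labelled KO. *Cdkn1a* was highest in the 79 and 88 cells scored G1, at 6.90 [3.44, 12.3] and 41.6 [32.2, 52.9]. Of the 66 *Cdkn1a* UMIs behind the latter value, 48 lay in 3 endothelium-like cells, and the other classes held 6.52 CPM in G1 labelled WT and 13.5 labelled KO. A score of G1 means only that neither list was raised. Most gated cells were scored G2M, 67.4% labelled WT and 70.3% labelled KO, and 5.73% and 4.45% were scored G1.

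**Figure D3:**
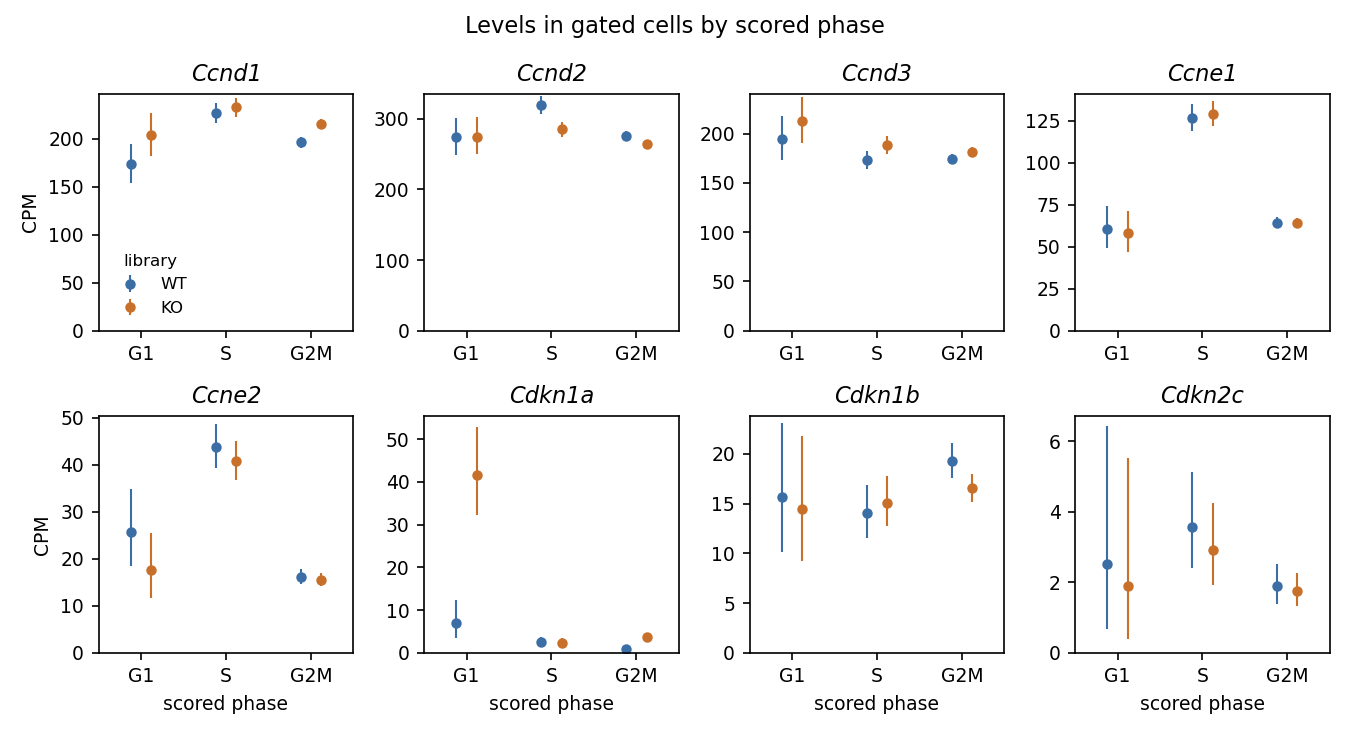
Levels (y axes, CPM, from 0, with exact 95% Poisson intervals) of the 8 genes in gated cells scored G1, S or G2M (x axes), blue for the library labelled WT and orange for that labelled KO. *Ccne1* and *Ccne2* are highest in S in both libraries, and *Cdkn1a* stands at 41.6 CPM in cells scored G1 labelled KO.

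Between the libraries, 4 of the 8 genes had a called pair: *Cdkn1a* was higher in the library labelled KO in 4 classes, LP-like cells held lower *Ccnd1*, *Ccnd2* and *Ccne1*, and neural crest-like cells held higher *Ccnd1*. A pair of gene and class was called where the ratio of CPM reached 1.5-fold and its interval excluded 1, among pairs with at least 20 UMIs in both libraries together. Of 63 such pairs of the 8 genes, 5 were higher and 3 lower in the library labelled KO. Over all genes and the same 10 classes, 2.18% of 84966 pairs were higher and 2.29% lower by this rule. The median log2 ratio of all tested genes lay between -0.02 and 0.07 in every class. The class shares not given below were 2.3% higher and 3.05% lower in SE-like, 3.19% lower in pigment epithelium-like, 1.49% higher and 1.71% lower in ventral OV-like, 1.58% lower in other OV-like, and 2.07% higher and 1.77% lower in forebrain-like cells. They were 1.82% lower in mesenchyme-like, 1.9% lower in neural crest-like, 2.84% lower in endothelium-like, 1.81% higher and 2.38% lower in erythroid-like cells, and 1.79% lower over all gated cells.

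**Figure D4:**
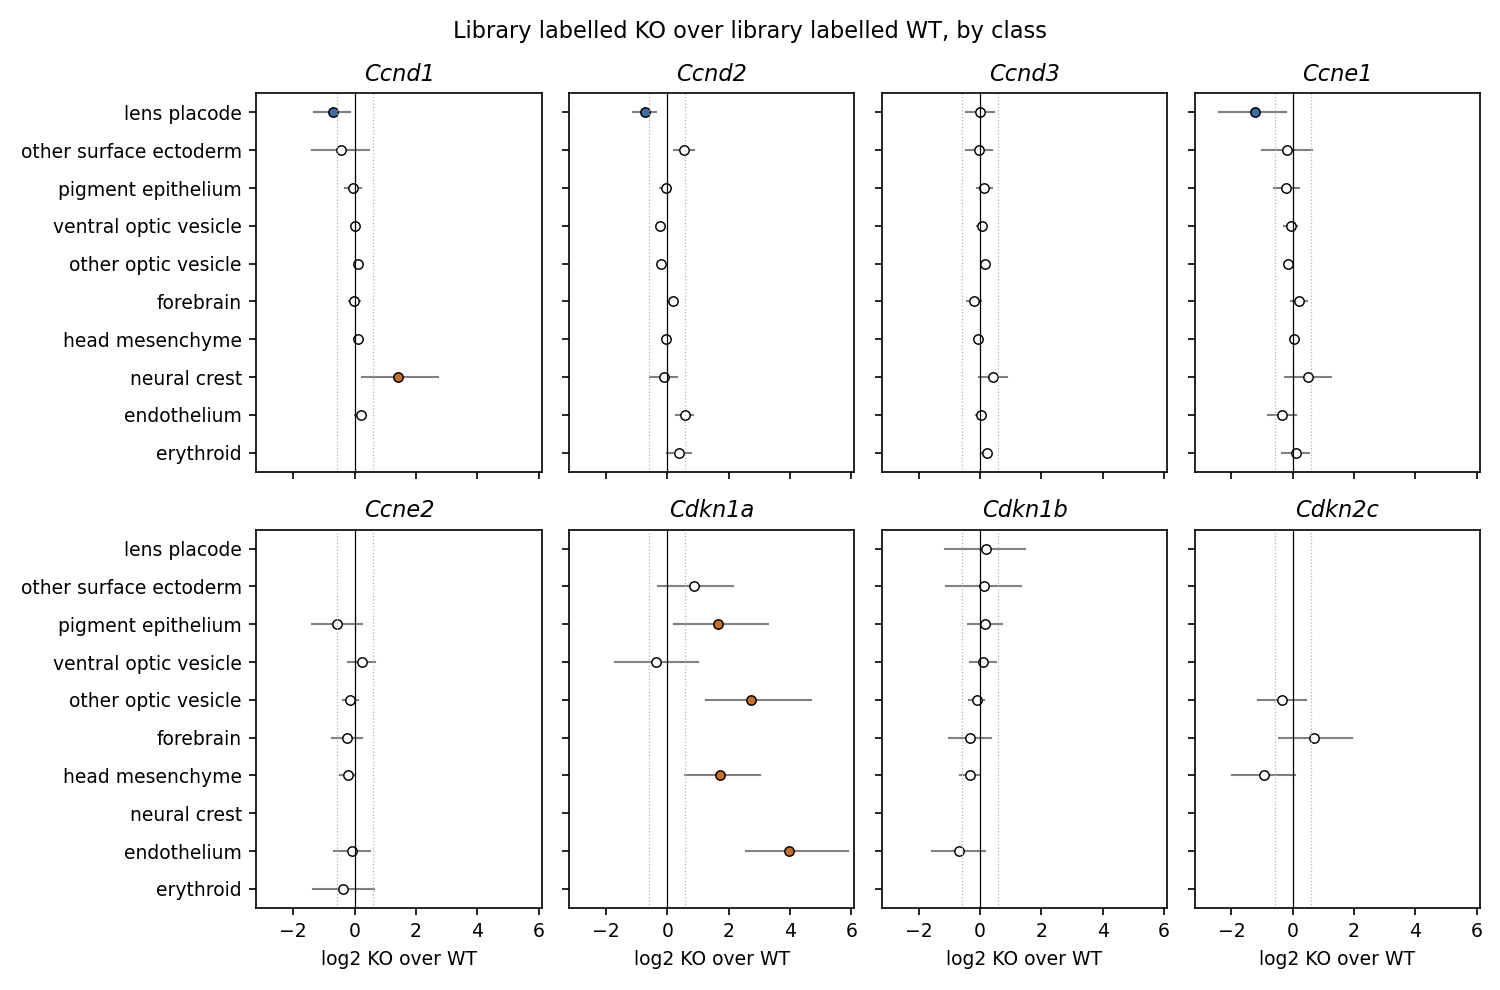
log2 ratio of CPM in the library labelled KO over that labelled WT (x axes, with exact 95% intervals) for each gene and class (y axes) with at least 20 UMIs. Filled points pass 1.5-fold (dotted lines) with an interval excluding 1: orange for the 5 higher pairs, 4 of them of *Cdkn1a*, and blue for the 3 lower pairs, all in LP-like cells.

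In LP-like cells *Ccnd2* held 241 UMIs (469 CPM) labelled WT and 90 (281 CPM) labelled KO, a ratio of 0.599 [0.465, 0.766]. *Ccnd1* held 95 UMIs (185 CPM) and 36 (112 CPM), a ratio of 0.608 [0.402, 0.901], and *Ccne1* 38 UMIs (73.9 CPM) and 10 (31.2 CPM), a ratio of 0.422 [0.188, 0.864]. *Ccnd1* is on a list that the study chose on these same libraries, so its value is not independent of that list. *Ccnd3* did not move with them, at 206 CPM in both libraries (0.999 [0.723, 1.37]), and *Cdkn1b* had a ratio of 1.15 [0.455, 2.77]. Of the 36 *Ccnd1* UMIs labelled KO, 13 lay in 1 cell, and without the cell of most UMIs in each library the ratio was 0.459 [0.276, 0.735]. The *Ccnd1* call thus held, whereas that of *Ccne1* ended without its cell of most UMIs in each library, at 0.454 [0.167, 1.07]. Of all genes tested in this class, 4.07% were lower and 3.82% higher by the rule. Of the LP-like cells, 9 of 26 labelled WT and 0 of 14 labelled KO were scored S (0% [0, 23.2]). Those scored G2M were 12 of 26 (46.2% [26.6, 66.6]) and 12 of 14 (85.7% [57.2, 98.2]). Over all gated cells, 26.9% labelled WT and 25.2% labelled KO were scored S, and 67.4% and 70.3% G2M. Classes from clusters gave 28 lens placode cells labelled WT and 25 labelled KO, and the phases of those cells were not counted. Thinning the cells left *Ccnd2* at a log2 ratio of 0.0067 (an interval of the ratio from 0.637 to 1.56), while the mean over cells of scaled UMIs gave 0.660. Without the 12 and 12 cells scored G2M, which left 2 cells labelled KO, the ratio of *Ccnd1* was 1.77 [1.01, 2.99]. The markers of this class moved too: the 4 lens placode markers summed to 980 CPM labelled WT and 768 labelled KO, the 7 surface ectoderm markers to 1056 and 1264, and the 5 pigment epithelium markers to 9.72, with 4 of them at 0, and 71.8, with 1 at 0. Their part in the *Ccnd1*, *Ccnd2* and *Ccne1* values was not tested. The 4 lens placode markers are also those of the gate, and the study lists *Pax6* and *Six3* among its genes lower in *Mab21l1*-null ectoderm. The gate may therefore not have selected cells alike in the 2 libraries.

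In SE-like cells, next to the placode, none of these genes was called. *Ccnd2* ran the other way there, at 263 and 381 CPM, 1.45-fold [1.16, 1.81]. *Ccnd1*, at a ratio of 0.744 [0.383, 1.40], and *Ccne1*, at 0.884 [0.496, 1.55], were below 1, with intervals that overlap those of LP-like cells. The difference between the 2 classes in their ratios was not tested. In neural crest-like cells *Ccnd1* held 9 UMIs labelled WT and 21 labelled KO (2.66 [1.17, 6.61]), in a class where 4.87% of genes were higher, and stricter gates, classes from clusters or leaving out cells scored G2M ended this call (2.01, 2.13 and 1.94, with intervals that hold 1).

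*Cdkn1a* over all gated cells rose from 51 UMIs (1.48 CPM) labelled WT to 211 (4.86 CPM) labelled KO, a ratio of 3.29 [2.42, 4.56], where 1.06% of genes were higher by the rule. Over all kept cells, gated or not, the levels were closer, at 2.03 CPM labelled WT and 4.65 labelled KO. Endothelium-like cells differed most, with 4 UMIs (2.10 CPM) and 84 (33.3 CPM), a ratio of 15.8 [5.96, 59.5], in a class where 2.09% of genes were higher. Other OV-like cells held 4 and 35 UMIs (6.66 [2.38, 25.8]), mesenchyme-like cells 8 and 34 (3.27 [1.48, 8.17]) and pigment epithelium-like cells 6 and 16 (3.13 [1.16, 9.76]). The shares of genes that were higher in these classes were 1.21%, 1.6% and 2.99%. Erythroid-like cells, with 0 and 8 UMIs, were below the limit of 20 UMIs. The exact lower limit of their ratio was 1.18, and 7 of the 8 UMIs lay in 1 cell. Ventral OV-like cells held 11 UMIs in each library (0.779 [0.306, 1.98]) and forebrain-like cells 6 and 7. Without endothelium-like cells the ratio was 2.16 [1.53, 3.08], from 47 and 127 UMIs.

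These *Cdkn1a* UMIs lay in few cells. Only 34 of 1378 gated cells labelled WT and 64 of 1978 labelled KO held any. No gated cell labelled WT held more than 4, whereas 12 gated cells labelled KO held 5 or more, and these 12 cells held 131 of the 211 UMIs. Cells outside the 10 classes were not counted singly. In endothelium-like cells labelled KO, 3 cells held 25, 23 and 22 UMIs, which is 70 of the 84, and the other 98 cells held the rest. The share of endothelium-like cells with any *Cdkn1a* UMI was 4 of 65 labelled WT (6.15% [1.70, 15.0]). Labelled KO it was 10 of 101 (9.90% [4.85, 17.5]), and these intervals overlap. The median depth of the 10 endothelium-like cells with *Cdkn1a* was 21811.5 UMIs against 20959 for the class. The 7 erythroid markers, which summed to 163 to 232 CPM labelled WT and 349 to 483 labelled KO in the 8 other classes, summed to 234 and 750 in endothelium-like cells. Of the 312 *Hba-a1* UMIs (alpha globin) of endothelium-like cells labelled KO, 195 lay in 1 cell, which held no *Cdkn1a*. The 4 endothelium-like cells with 5 or more *Cdkn1a* UMIs held no *Hba-a1* UMI and 3.65 to 5.73 erythroid marker UMIs per 10000, around the class median of 4.54. The intervals above treat each UMI as a separate count and do not cover this spread between cells.

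**Figure D5:**
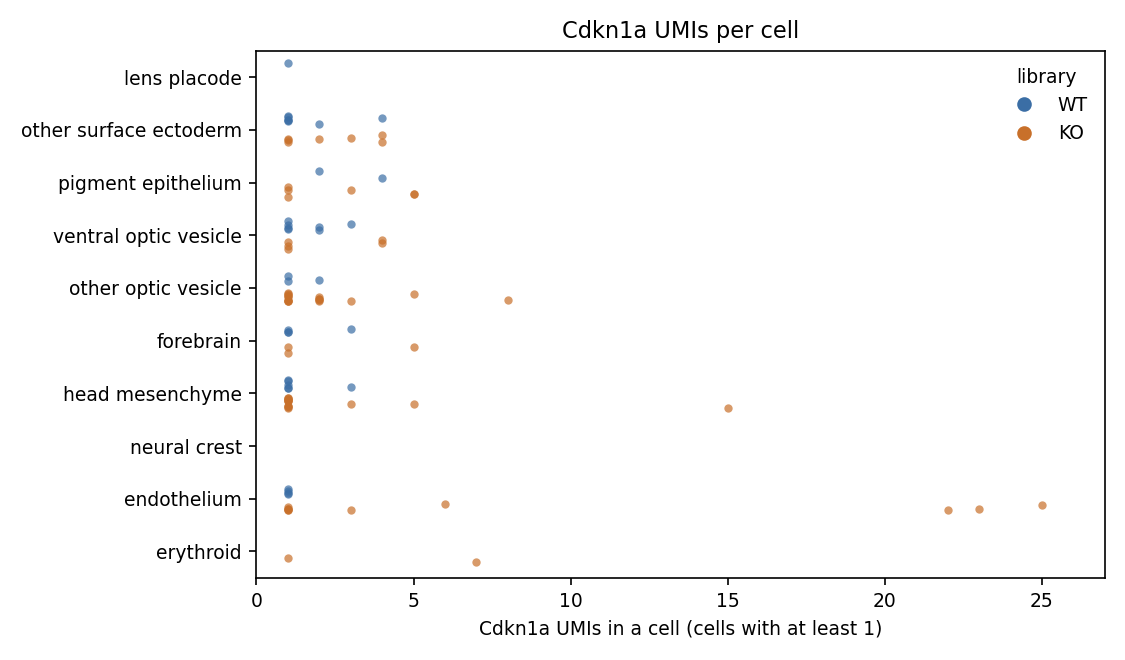
*Cdkn1a* UMIs in each cell that held at least 1 (x axis), by class (y axis), blue for the library labelled WT and orange for that labelled KO, with points spread vertically for view. Gated cells labelled WT reach 4 UMIs at most, and 3 endothelium-like cells labelled KO hold 22 to 25.

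With the cell of most *Cdkn1a* UMIs left out of each class and library, endothelium-like cells kept 3 and 59 UMIs (14.8 [4.82, 73.8]) and mesenchyme-like cells 5 and 19 (2.92 [1.05, 10.0]). The pigment epithelium-like call ended under stricter gates (1.18) and with classes from clusters (1.20). Thinning ended those of mesenchyme-like (1.94) and pigment epithelium-like cells (1.09). Leaving out cells scored G2M ended the calls of other OV-like cells (1.93), mesenchyme-like cells (0.130, from 7 UMIs) and pigment epithelium-like cells (0.607, from 9 UMIs), the last 2 with the opposite direction, and left that of endothelium-like cells, at 2 and 51 UMIs (16.8 [4.41, 142]).

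The other 4 genes showed no called pair. *Ccnd3* ratios lay between 0.878 in forebrain-like and 1.34 in neural crest-like cells over all 10 classes. Those of *Ccne2* lay between 0.679 and 1.18 in the classes with at least 20 UMIs, and those of *Cdkn1b* between 0.620 [0.341, 1.12] in endothelium-like cells and 1.15 in LP-like cells. *Cdkn2c* could be compared in 3 classes, at 0.787 [0.457, 1.36] in other OV-like, 1.63 [0.740, 3.85] in forebrain-like and 0.524 [0.253, 1.06] in mesenchyme-like cells. Some ratios under 1.5-fold had narrow intervals: *Ccnd2* stood at 0.871 [0.831, 0.913] in other OV-like cells, where *Ccnd1* stood at 1.07 [1.02, 1.12], and at 1.48 [1.22, 1.81] in endothelium-like cells.

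Each list of other genes of the pathway had called genes in some classes, and none had any in other OV-like or mesenchyme-like cells. Of 10 E2F target genes, 3 were lower and none higher in LP-like cells: *Mcm5* and *Mcm6*, of the replicative helicase, and *Ung*, a DNA repair glycosylase, with ratios of 0.341, 0.422 and 0.321. *Mcm5*, and *Ccnf* and *Rrm2* below, are among the genes the study named for its own comparison of these libraries. The median log2 ratio of the list was -0.61 there, against -0.02 over all genes. *Cdt1*, which licenses replication origins, was at 0.414 in the same cells, while the mitotic genes *Cdk1* (1.60 [1.05, 2.46]) and *Ccnf* (2.81 [1.10, 7.72]) were higher and *Cdkn1c* was lower (422 to 256 CPM, 0.606 [0.464, 0.785]). In pigment epithelium-like cells 2 of 10 were lower, *Rrm2* (0.483) and *Tyms* (0.660), both of nucleotide synthesis, and *Ccnb1* was lower too (0.588 [0.503, 0.685]). SE-like cells had 1 of 10 E2F targets lower and 0 higher. The median log2 ratio of the list was -0.32 in SE-like cells, against -0.005 over all genes. The neural crest-like class went the other way, with *Mcm2*, *Tyms* and *Rrm2* of the E2F targets and *Cdk1*, *Ccnb1* and *Ccnb2* at ratios of 1.73 to 2.37. Over the 10 classes the E2F targets gave 3 higher and 6 lower of 100 pairs, beside 2.18% higher and 2.29% lower over all genes.

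The list of 15 p53 target genes, which does not hold *Cdkn1a*, gave 4 higher and no lower of 88 pairs of gene and class. Over all genes, 2.18% of such pairs were higher and 2.29% lower. Over all gated cells, 0 of its 14 tested genes were higher and 1 was lower. In endothelium-like cells, where *Cdkn1a* was 15.8-fold higher, 1 of 10 tested genes was higher, *Phlda3* (50.0 and 77.4 CPM, from 95 and 195 UMIs, a ratio of 1.55). *Mdm2*, a p53 target that limits p53, stood at 1.32 with an interval from 0.863, *Ccng1* at 0.880 and *Bax* at 1.03, and the median log2 ratio of the list was -0.01. These ratios are of class sums, over 101 endothelium-like cells labelled KO. Such sums can hide a change limited to the 3 cells that held 70 of the 84 *Cdkn1a* UMIs. The p53 targets were not counted in those cells alone. *Phlda3* was also higher in ventral OV-like cells (1.62 [1.08, 2.49]), and *Zmat3* (2.19 [1.13, 4.41]) and *Bbc3* (1.74 [1.10, 2.80]) were higher in pigment epithelium-like cells. In other OV-like and mesenchyme-like cells none of 11 and 12 tested genes was higher.

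Of the E2F factors, none was higher and 4 of 70 pairs were lower, where 2.29% of pairs were lower over all genes. Of these 4, 3 were *E2f1*, in forebrain-like (0.660), endothelium-like (0.601) and erythroid-like cells (0.437), and 1 was *E2f3*, in pigment epithelium-like cells (0.587). *Cdk2*, the partner of the E cyclins, was lower in neural crest-like (0.317) and endothelium-like cells (0.596). *Rbl1*, of the RB family, was lower in ventral OV-like cells (0.613). *Fbxw7*, which marks cyclin E for breakdown, was lower in neural crest-like cells (0.190, 18 and 3 UMIs) and higher in erythroid-like cells (5.09, 3 and 22 UMIs).

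For each of the 8 genes the 3 genes most like it over the 20 points of class and library, among 5354 genes with a mean of at least 20 CPM, were named by Pearson r of log2(CPM + 1). They were *Hsd17b12*, *Cnih1* and *Golm1* for *Ccnd1* (r = 0.94 to 0.97), *Msi1*, *Nfyc* and *Unc119b* for *Ccnd2* (0.94 to 0.95), and *Clk3*, *March2* and *Serinc3* for *Ccnd3* (0.87 to 0.90). For *Ccne1* they were *Rsl1d1*, *Brca2* and *Ctps* (0.78 to 0.81) and for *Ccne2* *Tcea1*, *Mybl2* and *Dcun1d5* (0.85 to 0.89). The inhibitors gave *Zfp945*, *Sesn3* and *Cebpzos* for *Cdkn1b* (0.94 to 0.95), *Nrbp1*, *Pcmt1* and *Derl2* for *Cdkn1a* (0.66 to 0.68), and *Memo1*, *Baz1a* and *Ctps* for *Cdkn2c* (0.75 to 0.79). The points share 2 libraries and the depth and composition of each class.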

How the data were processed

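Per the labels, 1 embryo per genotype gave 1 Chromium 3′ v3 library. The authors counted UMIs with Cell Ranger on mm10 (GRCm38), merged both with its aggr step, where reads can be subsampled, and deposited whole-number counts of 27998 genes in 4203 barcodes, not scaled per cell. The sources used here do not state whether counting used strand. Kept barcodes had between 1500 and 8000 genes counted and no more than 5% of UMIs from mitochondrial genes (written as a smaller percent in the methods and read as a fraction). There were 4084, with 41880035 UMIs labelled WT and 52430844 labelled KO.

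Cells were classed by the summed level of marker genes per 10000 UMIs and by the number of markers counted. The gate levels were set after marker levels, and not those of the 8 genes, were seen, and cells passing several gates (126 labelled WT, 125 labelled KO) were left out, which also served in place of a doublet caller. Optic vesicle and forebrain gates were not applied to surface ectoderm-like cells, which share *Pax6*, *Six3* and *Sox3*. Doublets of surface ectoderm with optic vesicle or forebrain cells could therefore not be flagged, and any such cells stayed in the LP-like and SE-like classes. Macrophage-like (17 and 6) and neuron-like (2 and 4) cells were not compared. Class sums gave CPM. Shares carry exact Clopper-Pearson intervals, levels exact Poisson intervals and ratios exact conditional intervals, all 95% and for counting error only. A call needed 1.5-fold and an interval excluding 1. Named genes were the 8 members, at most 4 called genes of each pathway list in a class, some uncalled genes of these lists given as values and chosen after they were seen, and the 3 genes most like each member. The members and lists were chosen with earlier results of these data known.

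The ratios and intervals were run on simulated Poisson counts for LP-like cells. There the rule called 79% of the genes set 2-fold higher and 50% of those set at 0.5-fold. These counts follow the model of the intervals and hold no further spread between cells. They therefore cannot show how the intervals fare where cells differ. Phases were scored with scanpy 1.11.5. Python 3.11.15, numpy 2.4.6, scipy 1.17.1, pandas 2.3.3, matplotlib 3.10.9 and, for TMM factors, edgeR 4.0.16 in R 4.3.3 were used. Alternatives changed gates, cell limits, depth, scaling, cells and the UMI limit of a tested gene. Of these, 2 were chosen after the data were seen: leaving out barcodes found in both libraries, and leaving out the cell with most UMIs of each gene.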

Additional observations from a re-analysis of the deposited data

Results flagged for a closer look

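*Ccnd1* ran in opposite directions between the libraries in 2 classes: its log2 ratio of KO over WT was -0.72 in LP-like cells and 1.41 in neural crest-like cells, both with counting intervals that exclude 0. This difference between the classes was not tested, since each genotype has 1 library. LP-like cells labelled KO held no cell scored S, and 3 of 10 E2F targets, *Mcm2*, *Tyms* and *Rrm2*, were higher in neural crest-like cells, as given above. The phase lists were not cleared of E2F targets, so these observations need not be independent. The part of these in the difference was not tested.

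Some RNA of the 8 genes lay outside the gated cells. In the 54 barcodes that the cell limits removed from the library labelled KO, *Cdkn1a* stood at 11.2 CPM (8 UMIs), 2.40 times [1.02, 4.80] the kept cells, whereas in the 65 removed from that labelled WT it stood at 2.28 CPM (4 UMIs), a ratio of 1.12 [0.299, 2.98]. In cells that passed several gates, *Cdkn1a* was 4.12 times [2.38, 6.92] the gated cells in the library labelled WT, from 22 UMIs, and 0.376 times [0.136, 0.832] in that labelled KO, from 6 UMIs.

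*Cdkn2c* was above its gated level in cells of no gate in both libraries, at 2.28 times [1.24, 3.94] labelled WT and 2.38 times [1.47, 3.72] labelled KO. In cells of several gates it was at 1.91 times [1.04, 3.30] and 2.28 times [1.22, 3.97]. In 17 macrophage-like cells labelled WT it was at 4.22 times [1.51, 9.61], from 6 UMIs. *Ccnd2* was at 1.52 times [1.19, 1.90] in the 6 macrophage-like cells labelled KO and at 1.12 times [0.965, 1.29] in the 17 labelled WT.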

How the results depend on the processing

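No paired analysis was possible because each genotype has 1 library. *Ccnd2* led 13 or 14 of the 20 pairs of class and library, *Ccnd3* 4 or 5 and *Ccne1* all 20 under every alternative run, while *Ccnd1* led 2 in place of 1 under stricter gates, with classes from clusters and in thinned cells. Inhibitors at least 2-fold from the other gated cells fell from 4 pairs to 1 in thinned cells. The 4 were *Cdkn1a* in SE-like and other OV-like cells, *Cdkn1b* in erythroid-like cells and *Cdkn2c* in forebrain-like cells. Only their number was kept after thinning, so the pair that remained cannot be named. In the library labelled KO, 5 pairs of gene and class were higher, against 2 with classes from clusters, 2 in thinned cells and 3 without cells scored G2M. Lower pairs were 3, against 7 with the mean over cells of scaled UMIs. Log2 ratios of called pairs changed sign in 4 cases: *Ccnd2* in LP-like cells in thinned cells (0.0067), and, without cells scored G2M, *Ccnd1* in LP-like cells (0.83), *Cdkn1a* in pigment epithelium-like cells (-0.72) and *Cdkn1a* in mesenchyme-like cells (-2.95). Thinning leaves 46 testable pairs and leaving out G2M 50, in place of 63, and the cause of the other differences was not tested. Leaving out cells scored G2M removed most gated cells, 929 of 1378 labelled WT and 1391 of 1978 labelled KO. Whether calls ended there through lost counts alone was not tested. In LP-like cells the *Ccnd2* call also ended under stricter gates (0.672), with classes from clusters (0.722) and without cells scored G2M (0.707). That of *Ccnd1* ended without limits on detected genes (0.694) and in thinned cells (0.516), and that of *Ccne1* under stricter gates (0.277), in thinned cells (0.371) and without cells scored G2M (0.206). *Cdkn1a* in endothelium-like cells stayed called under all 11 alternatives run for it, at 12.9 to 20.7-fold. Lifting the limits on detected genes and leaving out shared barcodes left its ratio at 15.8. Testing genes with at least 1 UMI did so too, and could not change this call. None of the 11 left out all 3 cells that held 70 of the 84 UMIs labelled KO, so the call was not tried without them. With classes from clusters *Cdkn1a* had 0 UMIs in other OV-like cells labelled WT, so no ratio was given. The number of cells limits LP-like cells most, with 26 and 14. Clusters gave 28 and 25 lens placode cells, and the paper describes similar numbers from both genotypes. The size of the difference in number thus depends on the gate. With clusters the number labelled KO was still not higher, although that library held more kept cells, 2404 against 1680. The shares of kept cells were not compared.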
